A study of Mus musculus with 4 samples.

Results

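The cytosolic ribosomal protein genes encode the protein subunits of the ribosome that translates nuclear-encoded messages. Here they are all rows of the deposited matrices whose symbol is Rpl or Rps followed by a number and at most 1 letter, together with the stalk genes Rplp0, Rplp1 and Rplp2 and the gene Rpsa. Names with "-ps" and the Rps6k kinases were left out. The rule found 80 genes among 32286 rows, of which 31 encode proteins of the small subunit and 49 proteins of the large subunit. All 80 are annotated as protein coding, and they lie on 19 chromosomes. A mature ribosome holds 1 copy of most of these proteins, so the cell needs them in nearly equal amounts, and their messages carry a run of pyrimidines at the 5′ end through which the mTORC1 kinase controls their translation. In the brain their synthesis is needed for growth, myelination and lasting synaptic change. A nuclear preparation holds newly made transcripts together with the cytoplasmic messages that stay attached to the nucleus, and mature ribosomal protein messages are abundant in cytoplasm.

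Nuclei were isolated from frozen primary motor cortex dissected from C57BL/6N mice and sequenced in 4 single-nucleus RNA-seq libraries, 1 for each group. In the first group an adeno-associated virus of serotype 8, driven by the human synapsin promoter and therefore aimed at neurons, was injected locally to express FLAG-tagged SIK3 that lacks exon 13. The second group received the same vector with wild-type SIK3. The third group was kept awake by gentle handling (sleep deprivation), and the fourth slept ad libitum; neither of these carries a vector. SIK3 is a salt-inducible kinase, and mice whose SIK3 lacks exon 13 sleep longer, so the series sets a sleep-promoting kinase and lost sleep each against a control. The age and sex of the mice, the length of the deprivation and the number of animals pooled in a library are not given in the sources used here. A group is a single library, so a difference has no replicate check and no p-value is given. All intervals below are exact 95% intervals that cover counting error only, and molecules of 1 library are not independent replicates of a condition.

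The libraries held 6259 barcodes for exon 13 deleted SIK3, 6978 for wild-type SIK3, 5944 for sleep deprivation and 9438 for ad lib sleep, with 43655557 to 54070503 UMIs (unique molecular identifiers, 1 per captured transcript) each. After filters on genes and mitochondrial UMIs and after removal of the likeliest doublets, 5490, 6312, 5317 and 8208 nuclei were left in that order. Between 9 and 16 barcodes were shared by any pair of libraries, at most 0.269% of the smaller library. The vector feature had 5090 UMIs in the exon 13 deleted library and 3441 in the wild-type SIK3 library, against 0 in both libraries without injection. Because the assay reads 3′ ends, the UMIs of Sik3 itself check nothing about the deletion. Nuclei were clustered without the ribosomal protein genes and named from markers. The dissection also held nuclei with markers of striatal projection neurons, and nuclei with no named class made up 34% of the sleep deprivation library, against 14.6 to 18.7% of the others. The sleep deprivation library also stood apart in depth, with a median of 13412 UMIs per excitatory nucleus, against 7258 to 9746 in the other 3 libraries.

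The promoters of 6 genes are printed here because these genes mark the ends of the ranges described below. Rplp0 had the highest ratio of glial to neuronal level and Rpl6 the lowest. Rpl35 and Rpl38 were higher, and Rps2 lower, with exon 13 deleted SIK3. Rpl27 was lower after sleep deprivation. Each sequence runs 5′ to 3′ on the gene's strand from 50 bases before to 25 bases after the annotated start, from RefSeq on GRCm38.p6. Capitals mark the letters CCGGAAG (the core bound by ETS-family factors, searched on both strands) and unbroken runs of at least 8 pyrimidines on the gene's strand. The windows are chr5:115559417-115559491 on the plus strand for Rplp0, chr5:121204451-121204525 on the plus strand for Rpl6, chr2:39005107-39005181 on the minus strand for Rpl35, chr11:114668530-114668604 on the plus strand for Rpl38, chr17:24720013-24720087 on the plus strand for Rps2 and chr11:101442195-101442269 on the plus strand for Rpl27.
Rplp0: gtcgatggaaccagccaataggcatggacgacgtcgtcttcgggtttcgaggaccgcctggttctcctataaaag
Rpl6: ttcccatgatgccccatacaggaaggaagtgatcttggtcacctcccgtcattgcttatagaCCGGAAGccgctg
Rpl35: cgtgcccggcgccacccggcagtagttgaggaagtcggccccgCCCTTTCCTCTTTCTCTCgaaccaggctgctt
Rpl38: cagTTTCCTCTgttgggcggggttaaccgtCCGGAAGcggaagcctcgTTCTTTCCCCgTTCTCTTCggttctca
Rps2: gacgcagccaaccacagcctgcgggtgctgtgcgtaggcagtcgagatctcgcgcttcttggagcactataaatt
Rpl27: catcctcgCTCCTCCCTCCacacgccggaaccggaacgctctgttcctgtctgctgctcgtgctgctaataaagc

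Of the 80 genes, 60 were matched to this promoter table. A pyrimidine run of at least 8 letters stood in the 75-base window of 34 of these 60 (56.7%), against 29.1% of all 27025 promoters in the table. The longest run in the 6 windows, 18 letters, is in Rpl35, and Rpl38 holds 3 runs. Rplp0, Rpl6 and Rps2 hold none, which says only that no such run lies in this window. CCGGAAG was found on either strand within the whole 300-base promoter of 24 of the 60 (40.0%), against 9.12% of all promoters. AAGATGGC, the core bound by YY1, was found on either strand in 4 of the 60 (6.67%), against 2.88%. The motifs were chosen with the sequences in view, and a match is not evidence of binding.

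Over nuclei of all depths, ribosomal protein genes took a larger share of UMIs in glial and vascular than in neuronal nuclei. The order of the classes was nearly the same in the 4 libraries. Leptomeningeal fibroblasts held 2.01 to 2.70%, endothelial cells 2.18 to 2.21%, microglia 1.64 to 1.91%, oligodendrocytes 1.61 to 1.92%, astrocytes 1.08 to 1.28% and oligodendrocyte precursors 0.817 to 1.03%. Striatal projection neurons held 0.517 to 0.582%, inhibitory neurons 0.50 to 0.541% and excitatory neurons 0.445 to 0.469%. Endothelial cells were the steadiest class, and the ranges of microglia and oligodendrocytes overlapped, as did those of striatal projection neurons and inhibitory neurons. The fibroblasts numbered only 35 to 58 nuclei per library.

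**Figure D1:**
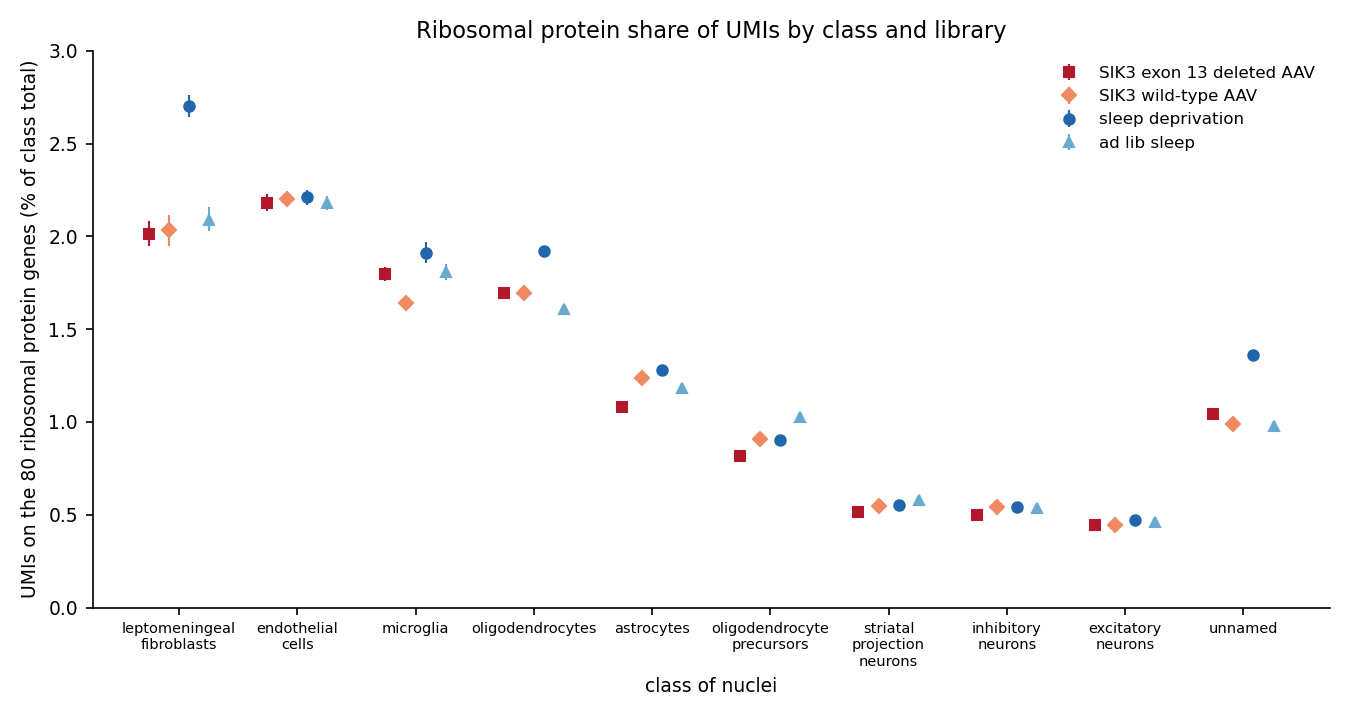
Share of UMIs on the 80 ribosomal protein genes (% of the class total, y axis) in each class of nuclei (x axis) and each of the 4 libraries; bars are exact 95% intervals for counting error. Over nuclei of all depths, every glial and vascular class lies above every neuronal class: oligodendrocytes reach 1.61 to 1.92% and excitatory neurons 0.445 to 0.469%.

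Most genes took part in the difference between classes, and few did so unevenly. Of 80 genes, 77 averaged at least 5 counts per 1000000 UMIs (CPM) in excitatory neurons. All 77 were higher in astrocytes, in oligodendrocytes and in endothelial cells than in excitatory neurons in each of the 4 libraries. The median log2 ratio over the 77 was 1.37 in astrocytes, 1.91 in oligodendrocytes and 2.27 in endothelial cells, against medians of 0.29, 0.27 and 0.41 over all genes compared. Inhibitory neurons differed far less from excitatory neurons, with a median of 0.23 for the ribosomal protein genes and 0.15 for all genes. In striatal projection neurons the medians were 0.27 and −0.04. At summed level, oligodendrocytes stood 3.81-fold over excitatory neurons with exon 13 deleted SIK3, 3.80-fold with wild-type SIK3, 4.10-fold after sleep deprivation and 3.49-fold with ad lib sleep. Among nuclei of 2000 to 4000 UMIs alone these ratios were 1.36, 1.6, 1.33 and 1.5. At that depth after sleep deprivation, oligodendrocyte precursors held 1.37%, excitatory neurons 1.41%, inhibitory neurons 1.42% and astrocytes 1.51%. With ad lib sleep these classes held 1.07, 0.901, 0.959 and 1.08% in the same order. The precursors were thus not above neurons at this depth in every library. The classes also differ in depth, with medians of 1673.5 to 2970 UMIs per oligodendrocyte nucleus and 7258 to 13412 per excitatory nucleus, and in mitochondrial share, with 1.12 to 1.28% in oligodendrocytes and 0.380 to 0.412% in excitatory neurons.

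The number of ribosomal protein UMIs per nucleus did not follow the order of the shares. An oligodendrocyte nucleus held a median of 31 with exon 13 deleted SIK3, 32 with wild-type SIK3, 46 after sleep deprivation and 27 with ad lib sleep. An endothelial nucleus held 34, 35, 44 and 30 in the same libraries, and an excitatory nucleus 42, 42, 62 and 34. Counts per nucleus thus differed little between oligodendrocytes, endothelial cells and excitatory neurons, whose total UMIs differed up to several-fold. A leptomeningeal fibroblast nucleus held 42, 44, 89.5 and 44 in the same libraries. When each nucleus was thinned to 1000 UMIs, the medians were 20 to 23 in endothelial cells, 15 to 16 in oligodendrocytes, 11 to 12.5 in astrocytes, 5 to 6 in inhibitory neurons and 5 in excitatory neurons. Thinning left out 12 to 94 oligodendrocyte nuclei per library and 2 to 5 excitatory nuclei, which were too shallow.

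The largest and smallest ratios of oligodendrocytes to excitatory neurons belonged to genes of both subunits. Rplp0, the base of the acidic stalk that recruits elongation factors, was at 110 CPM in oligodendrocytes and 19.3 CPM in excitatory neurons with exon 13 deleted SIK3, 109 and 22.3 CPM with wild-type SIK3, 126 and 26.5 CPM after sleep deprivation and 106 and 23.4 CPM with ad lib sleep. Its mean log2 ratio, 2.26, was the highest of the 77. Rps3, a small-subunit protein at the mRNA entry channel, followed with 2.23, and Rpsa, the laminin receptor that sits on the small subunit, with 2.15. Rps24 had 2.15, and Rps19, which is mutated in Diamond-Blackfan anaemia, had 2.14. At the other end Rpl6, a large-subunit protein, averaged 328 CPM in oligodendrocytes and 130 CPM in excitatory neurons, a log2 ratio of 1.33. Rpl22 (1.46), Rpl15 (1.51), Rps27 (1.53) and Rpl5 (1.54) were next. Rpl5 is 1 of the proteins that carry 5S rRNA into the ribosome and bind the p53 regulator MDM2. Rpl6 was also lowest of the 77 in astrocytes (0.81) and endothelial cells (1.56).

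**Figure D2:**
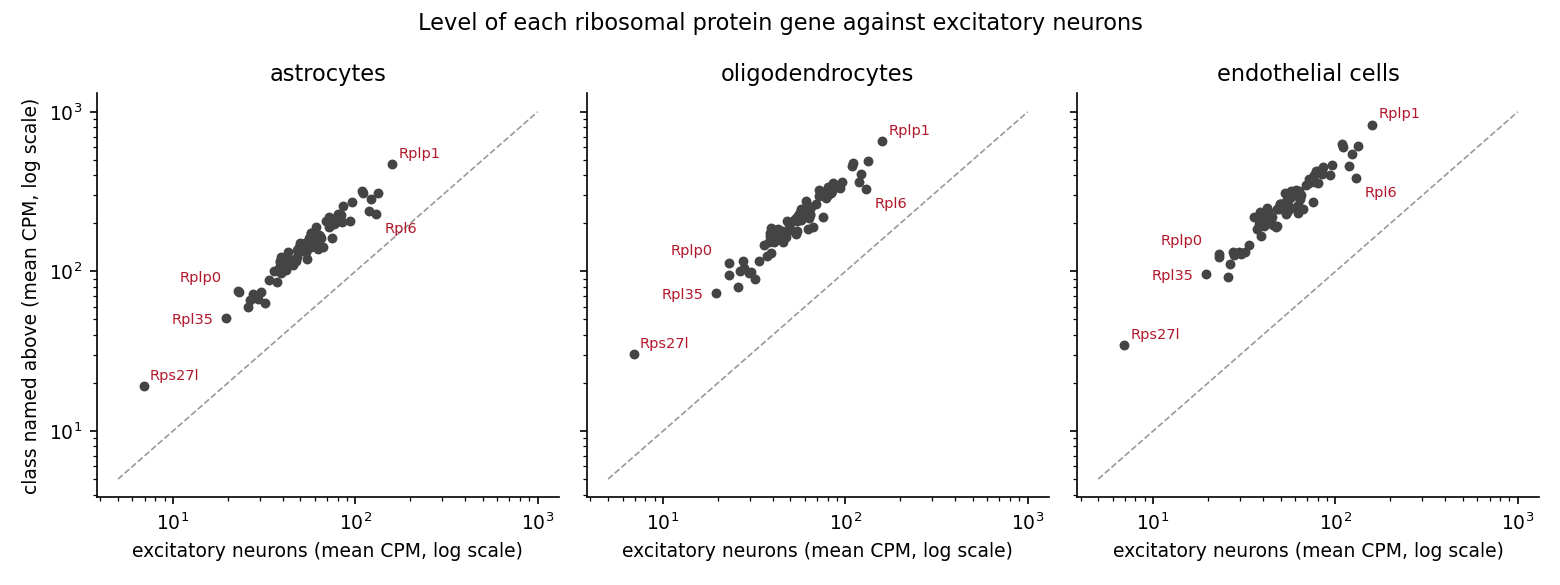
Mean level over the 4 libraries of each of 77 ribosomal protein genes (CPM, log axes), with the level in astrocytes, oligodendrocytes or endothelial cells (y axis) plotted against that in excitatory neurons (x axis). Points lie above the line of equality; Rplp0 stands highest above it in oligodendrocytes (log2 ratio 2.26) and Rpl6 closest to it (1.33).

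Within excitatory neurons the genes covered a wide range of levels. Each UMI of this 3′ assay marks 1 transcript end, so levels in CPM were not divided by transcript length. Averaged over the 4 libraries, the 10 highest included the stalk protein gene Rplp1 at 159 CPM, Rps21 at 133, Rpl6 at 130, Rpl41 at 123, Rpl27a at 119, Rpl13 at 108, Rps14 at 96.2, Rps15 at 93.0 and Rps29 at 85.4 CPM. These 10 held 25.4% of the ribosomal protein UMIs of excitatory neurons and 24.3 to 24.8% of those of the other 5 classes compared, and the summed level ran over 4555 CPM in excitatory neurons to 21932 CPM in endothelial cells. The order of the genes was shared between classes. Across 77 genes, which are not independent replicates and share library and depth, Spearman's correlation with excitatory neurons was 0.988 in inhibitory neurons, 0.979 in striatal projection neurons, 0.966 in astrocytes, 0.957 in oligodendrocytes, 0.951 in microglia and 0.943 in endothelial cells. Small-subunit genes held 39.2 to 42.1% of the ribosomal protein UMIs in excitatory, inhibitory and striatal projection neurons, astrocytes, oligodendrocytes and endothelial cells of the 4 libraries, the 6 classes compared below.

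Of the 3 stalk genes, Rplp1 had the highest level and Rplp0 the lowest in all 4 libraries. In excitatory neurons Rplp1 was at 147 CPM with exon 13 deleted SIK3, 161 CPM with wild-type SIK3, 156 CPM after sleep deprivation and 172 CPM with ad lib sleep. Rplp2 was at 64.1, 61.3, 65.0 and 64.8 CPM in the same libraries, and Rplp0 at 19.3, 22.3, 26.5 and 23.4 CPM. Rplp0 was highest after sleep deprivation and lowest with exon 13 deleted SIK3. The same held for Rpsa, with 54.1 CPM with exon 13 deleted SIK3, 57.7 CPM with wild-type SIK3, 72.6 CPM after sleep deprivation and 58.9 CPM with ad lib sleep. Rpl11, the partner of Rpl5 in the 5S particle, ranged from 62.3 to 66.9 CPM.

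Among the 80 genes, paralogs whose symbols end in l were nearly silent, except 1. Rpl36al, whose name lies outside the rule, was not silent, with 8248 UMIs in all kept nuclei. Rpl10l, an intronless copy of Rpl10 known from testis, had 0 UMIs in all kept nuclei of the 4 libraries. Rpl39l, also known from testis, had 7 UMIs in all and none in excitatory neurons. Rpl3l, the form of Rpl3 made in heart and skeletal muscle, had 106 UMIs in all. In excitatory neurons Rpl3l had 0 UMIs with exon 13 deleted SIK3, where 3 UMIs would have been 0.142 CPM. It had 12 UMIs (0.471 CPM) with wild-type SIK3, 8 UMIs (0.311 CPM) after sleep deprivation and 17 UMIs (0.610 CPM) with ad lib sleep. Other classes did not share this 0. In the same order of libraries, striatal projection neurons had 7, 2, 3 and 3 UMIs and astrocytes 6, 5, 7 and 3. Rpl3l and Rps2 are neighbours on chromosome 17 (chr17:24727820-24736143 and chr17:24718116-24721929 in GENCODE vM21 on GRCm38, both on the plus strand). Rps27l, a p53-induced copy of Rps27, was expressed in every large class. It was at 22.6 to 35.9 CPM in oligodendrocytes. In excitatory neurons it was at 7.65 CPM with exon 13 deleted SIK3, 7.34 CPM with wild-type SIK3, 6.1 CPM after sleep deprivation and 6.6 CPM with ad lib sleep. The near-identical copies of many ribosomal protein genes elsewhere in the genome can take or lose reads, which was not tested.

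Within every large class, shallow nuclei held a larger share of ribosomal protein UMIs than deep nuclei. In excitatory neurons with ad lib sleep the share was 1.42% in nuclei of 1000 to 2000 UMIs, 0.901% from 2000 to 4000, 0.571% from 4000 to 8000, 0.391% from 8000 to 16000 and 0.284% from 16000 to 32000. After sleep deprivation it was 1.41% from 2000 to 4000 UMIs, 0.811% from 4000 to 8000, 0.521% from 8000 to 16000, 0.382% from 16000 to 32000 and 0.361% above that. The decline with depth was thus seen in both libraries, at a higher level after sleep deprivation. The count per nucleus went up with depth, but less than in proportion. In ad lib sleep an excitatory nucleus held on average 23.2, 28.8, 33.7, 42.4 and 54.5 ribosomal protein UMIs in those 5 depth classes. Mitochondrial UMIs moved with the share, at 0.893, 0.592, 0.462, 0.346 and 0.272%. UMIs on markers of other classes stood at 3134 CPM in the shallowest and 2074 CPM in the deepest of these nuclei. The part of either in the decline was not tested.

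**Figure D3:**
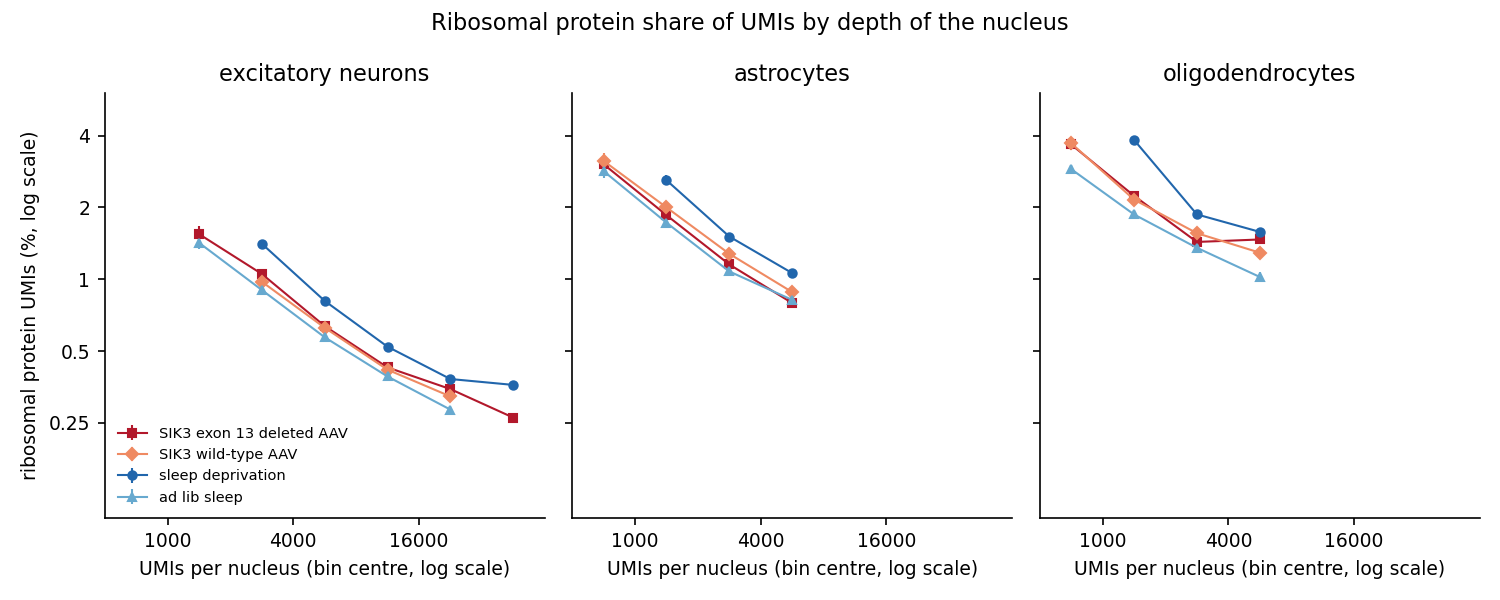
Share of UMIs on ribosomal protein genes (%, log axis) against total UMIs per nucleus (log axis, bins that double) in 4 libraries, by class; bins under 20 nuclei are left out. The share is lower in the deepest than in the shallowest bin of each class shown; in excitatory neurons with ad lib sleep it is 1.42% in the shallowest bin and 0.284% in the deepest.

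The decline with depth reached all measured ribosomal protein genes. In excitatory neurons 77 of 77 were higher in nuclei of 2000 to 4000 UMIs than in nuclei above 16000 UMIs in each of the 4 libraries, with a median log2 ratio of 1.68. Over 11984 genes the median was 0.11, and 59.6% were above 0. The summed ratio of shallow to deep nuclei was 3.04 with exon 13 deleted SIK3, 3.03 with wild-type SIK3, 3.69 after sleep deprivation and 3.17 with ad lib sleep. Rplp1 had the highest ratio, 1.96 on the log2 scale, with 434 CPM in shallow and 109 CPM in deep nuclei. Rps19 (1.94), Rps29 (1.92) and Rps10 (1.90) came next. Rpl23a (1.12), Rpl6 (1.14), Rpl5 (1.22) and Rpl15 (1.27) had the lowest ratios, and Rpl6 had 224 CPM in shallow and 101 CPM in deep nuclei. Rpl6, Rpl5 and Rpl15 were thus at the low end both across depth and across classes. The ratio did not track the length of the gene on the chromosome (Spearman's correlation 0.035 over 77 genes).

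Other classes followed the same course. With ad lib sleep, astrocytes held 2.84, 1.72, 1.08 and 0.819% in the depth classes that start at 500, 1000, 2000 and 4000 UMIs, and oligodendrocytes held 2.89, 1.87, 1.35 and 1.02%. In oligodendrocytes with exon 13 deleted SIK3 the deeper of the last pair of depth classes was not lower, with 1.43% from 2000 to 4000 UMIs and 1.47% from 4000 to 8000. Barcodes left out for fewer than 500 genes lay at the extreme. They held 3.80% with exon 13 deleted SIK3, 4.11% with wild-type SIK3, 4.48% after sleep deprivation and 3.77% with ad lib sleep. That was 21.4, 23.1, 25.3 and 21.1 ribosomal protein UMIs per barcode in the same libraries, where excitatory nuclei of 1000 to 2000 UMIs with ad lib sleep held 23.2.

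Subtypes of neurons differed modestly. Among excitatory clusters, layer 5/6 near-projecting-like neurons held 0.535% with exon 13 deleted SIK3, 0.535% with wild-type SIK3, 0.579% after sleep deprivation and 0.620% with ad lib sleep. Layer 6 intratelencephalic-like neurons held 0.398, 0.418, 0.403 and 0.40% in the same libraries, and layer 2/3 intratelencephalic-like neurons 0.447, 0.433, 0.454 and 0.439%. The near-projecting-like nuclei were thus above both intratelencephalic groups in all 4 libraries. They were also shallower, with medians of 4828 to 9825 UMIs, against 8306 to 14788.5 in the layer 6 and 7996.5 to 15669.5 in the layer 2/3 intratelencephalic-like group. Vip-like inhibitory neurons held 0.556 to 0.586%, Sst-like 0.463 to 0.526% and Pvalb-like 0.453 to 0.511%. A small inhibitory cluster led by Top2a, Igfbpl1, Pax6 and Dlx1, genes of dividing and migrating precursors, held 1.07 to 1.42% over 20 to 50 nuclei per library. Here too the higher shares went with fewer UMIs, with medians of 2110 to 2905.5 in that small cluster, 5323 to 9225 in Vip-like, 6906 to 13579 in Sst-like and 6961 to 12323 in Pvalb-like neurons. The part of depth in these differences was not tested.

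Oligodendrocytes formed a pair of clusters with unlike ribosomal protein shares. Cluster 17, led by the myelin genes Mal, Cldn11, Ermn and Mobp and the chaperone gene Cryab, held 3.19% with exon 13 deleted SIK3, 3.02% with wild-type SIK3, 3.01% after sleep deprivation and 2.82% with ad lib sleep. Cluster 4, led by St18, Prr5l, Sec14l5, Aspa and Mog, held 1.31, 1.39, 1.43 and 1.38% in the same libraries. Cluster 17 was the shallower of the pair, with medians of 988 to 2134 UMIs per nucleus against 1816 to 3020 in cluster 4. It made up 28.3% of oligodendrocyte nuclei after sleep deprivation and 21.3% with ad lib sleep. An unnamed cluster led by Nefl, Hsp90aa1 and Gapdh held 2.48, 2.27, 3.22 and 2.25%. It numbered 1497 nuclei after sleep deprivation, against 677 with ad lib sleep, and was left out of the class comparisons.

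Sleep deprivation was set against ad lib sleep class by class, to see whether lost sleep went with a change of ribosomal protein transcripts. Among nuclei named excitatory neurons the summed level was nearly equal, with a ratio of 1.02 (1.01 to 1.03). In oligodendrocytes it was higher after sleep deprivation, 1.20-fold (1.17 to 1.22), and in astrocytes 1.08-fold (1.06 to 1.11). Inhibitory neurons had 1.01 (0.995 to 1.03), endothelial cells 1.01 (0.990 to 1.04) and striatal projection neurons 0.947 (0.925 to 0.971). The median log2 ratio of the genes was 0.02 in excitatory neurons, 0.23 in oligodendrocytes, 0.11 in astrocytes, 0.02 in inhibitory neurons, 0.03 in endothelial cells and −0.08 in striatal projection neurons. The medians over all genes tested in those classes were −0.03, −0.01, −0.02, −0.02, 0.03 and −0.08.

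A gene was called when its log2 ratio lay at or past 0.32 in either direction. Only genes that averaged 5 CPM or more over the 4 libraries and had 100 UMIs or more in the pair compared were counted. In excitatory neurons 1 of 77 ribosomal protein genes was called higher, where 6.54% of all genes were, and 1 lower, where 12.4% were (18.9% either way). In oligodendrocytes 23 of 76 were called higher, where 16.0% of all genes were, and 0 lower, where 15.9% were (31.9% either way). There 70 of 76 had a ratio above 1 of any size, as had 48.9% of all genes; in excitatory neurons 41 of 77 had, and 43.3% of all genes. In astrocytes 9 of 76 were called higher (15.1% of all genes) and 0 lower (16.5%). In inhibitory neurons 0 of 77 were called higher (6.51% of all genes) and 2 lower (12.3%). Striatal projection neurons had 5 of 75 higher (11.3%) and 9 lower (22.2%), and endothelial cells 2 of 75 higher (19.9%) and 5 lower (14.8%). Outside oligodendrocytes the share of ribosomal protein genes called higher was thus below that of all genes.

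In oligodendrocytes both subunits took part. The median log2 ratio was 0.28 for small-subunit genes, with 29 of 30 above 0, and 0.22 for large-subunit genes, with 41 of 46 above 0. In excitatory neurons the medians were −0.02 (12 of 31 above 0) and 0.05 (29 of 46 above 0). Rpl10, a large-subunit protein beside the catalytic centre, was at 134 CPM in oligodendrocytes after sleep deprivation, against 75.2 CPM with ad lib sleep, a ratio of 1.79 (1.39 to 2.30). Rpl35, at the exit of the peptide tunnel, was at 82.7 CPM after sleep deprivation and 44.0 CPM with ad lib sleep (1.88; 1.36 to 2.62). Rpl29 was at 131 CPM after sleep deprivation and 81.6 CPM with ad lib sleep (1.61; 1.26 to 2.06). These 3 had the highest ratios in oligodendrocytes. The lowest were Rpl22 (0.858), Rpl27 (0.928) and Rpl7a (0.934).

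The oligodendrocyte difference moved with the mix of nuclei. Within cluster 4 the summed ratio was 1.04 (1.01 to 1.06), and within cluster 17 it was 1.07 (1.03 to 1.10). Without cluster 17 the median log2 ratio was 0.05 and 11 genes were called. With only nuclei under 1% mitochondrial UMIs it was −0.06, and with libraries not centred before clustering 0.05. Excitatory markers in the oligodendrocyte sums, all 9 of 9 with UMIs, stood at 1493 CPM after sleep deprivation and 1299 CPM with ad lib sleep, and the 9 astrocyte markers at 1498 and 931 CPM. The oligodendrocytes' own markers were at 12630 and 12534 CPM, and the mitochondrial share was 1.12 and 1.20%. The part of the other classes' RNA in the result was not tested.

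Nuclei of equal depth gave another picture, in which the sleep deprivation library was higher throughout. In excitatory neurons the ratio was 1.56 (1.5 to 1.62) from 2000 to 4000 UMIs, where the shares were 1.41% after sleep deprivation and 0.901% with ad lib sleep. It was 1.42 from 4000 to 8000, 1.33 from 8000 to 16000 and 1.34 from 16000 to 32000 UMIs. In oligodendrocytes it was 2.05 (1.98 to 2.13), 1.38 and 1.54 in the classes from 1000, 2000 and 4000 UMIs, and in astrocytes 1.51, 1.40 and 1.30. The libraries differ in the mix behind these classes, since 31.5% of excitatory nuclei after sleep deprivation had 16000 to 32000 UMIs, against 6.13% with ad lib sleep. When the nuclei of each library were instead split by depth rank into 5 groups of equal size, the excitatory ratios were 1.05, 0.965, 0.990, 1.0 and 1.10, shallowest first. In oligodendrocytes they were 1.47, 1.18, 1.02, 1.26 and 1.29. Equal UMI totals and equal rank thus gave unlike answers, and sequencing depth and sleep cannot be told apart with 1 library per group. Within excitatory clusters, over nuclei of all depths, the ratios were 1.02 in layer 6 corticothalamic-like neurons, 1.03 in layer 2/3 intratelencephalic-like neurons, 1.12 in layer 4/5 intratelencephalic-like neurons, 1.01 (0.983 to 1.04) in layer 6 intratelencephalic-like neurons and 1.02 in an excitatory cluster with no subtype name. In the smaller near-projecting-like cluster the share was lower, 0.579% after sleep deprivation and 0.620% with ad lib sleep, and in the layer 6b-like cluster it was 0.428% and 0.433%.

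**Figure D4:**
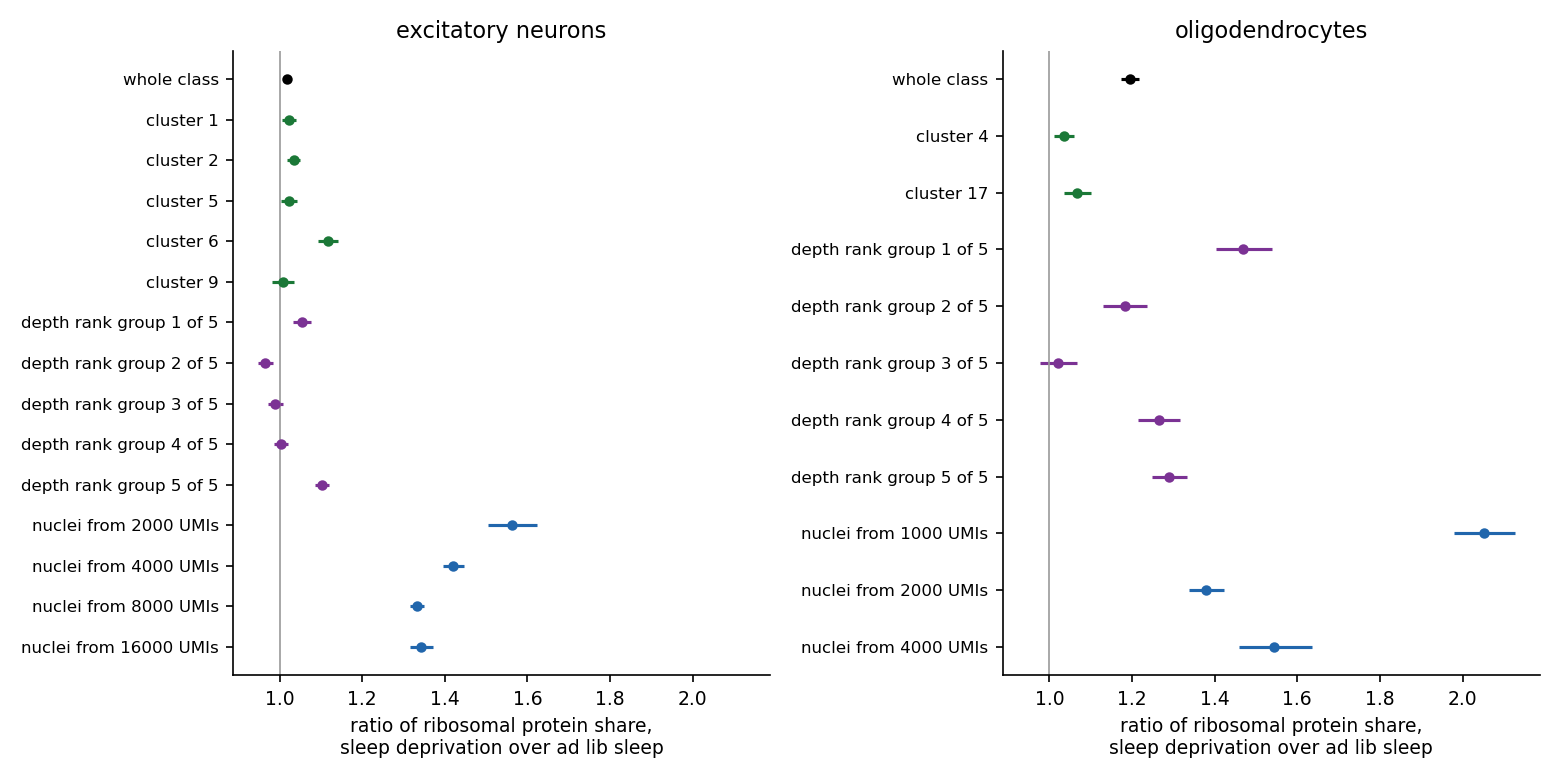
Ratio of the ribosomal protein share in sleep deprivation over ad lib sleep (x axis, linear, line at 1) for excitatory neurons and oligodendrocytes, as a whole class, by cluster, by depth rank within each library (group 1 shallowest) and for nuclei in the same UMI range, named by its lower edge; bars are 95% intervals for counting error. Whole excitatory neurons lie at 1.02 and nuclei of 2000 to 4000 UMIs at 1.56; whole oligodendrocytes lie at 1.20, cluster 4 at 1.04 and cluster 17 at 1.07.

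Some genes had the same direction in every class compared. Of 75 genes tested in all 6 large classes, 13 were higher after sleep deprivation in all 6 and 2 lower in all 6, against 245 and 215 of 2148 genes. The 13 included Rplp0, Rpl21, Rps3, Rplp2, Rpl29, Rpsa, Rpl41, Rpl26, Rpl38, Rpl37, Rpl24 and Rpl10; Rpl37 was named after its values were seen. Rpsa was at 72.6 CPM in excitatory neurons after sleep deprivation, against 58.9 CPM with ad lib sleep (1.23; 1.15 to 1.32), at 236 and 172 CPM in astrocytes, 354 and 251 CPM in oligodendrocytes and 391 and 318 CPM in endothelial cells. Rpl29 was at 35.6 CPM in excitatory neurons after sleep deprivation and 28.4 CPM with ad lib sleep (interval of the ratio 1.14 to 1.38). Rpl35 had the highest excitatory ratio, 1.28 (1.12 to 1.47). Rpl27, a large-subunit protein, went the other way in every class. It was at 48.0 CPM in excitatory neurons after sleep deprivation and 62.2 CPM with ad lib sleep (0.771; 0.717 to 0.830), and at 181 and 285 CPM in endothelial cells (0.637). Over the 6 classes its log2 ratio ranged from −0.65 to −0.11. Rps18 was the other gene lower in all 6, from −0.28 to −0.02.

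**Figure D5:**
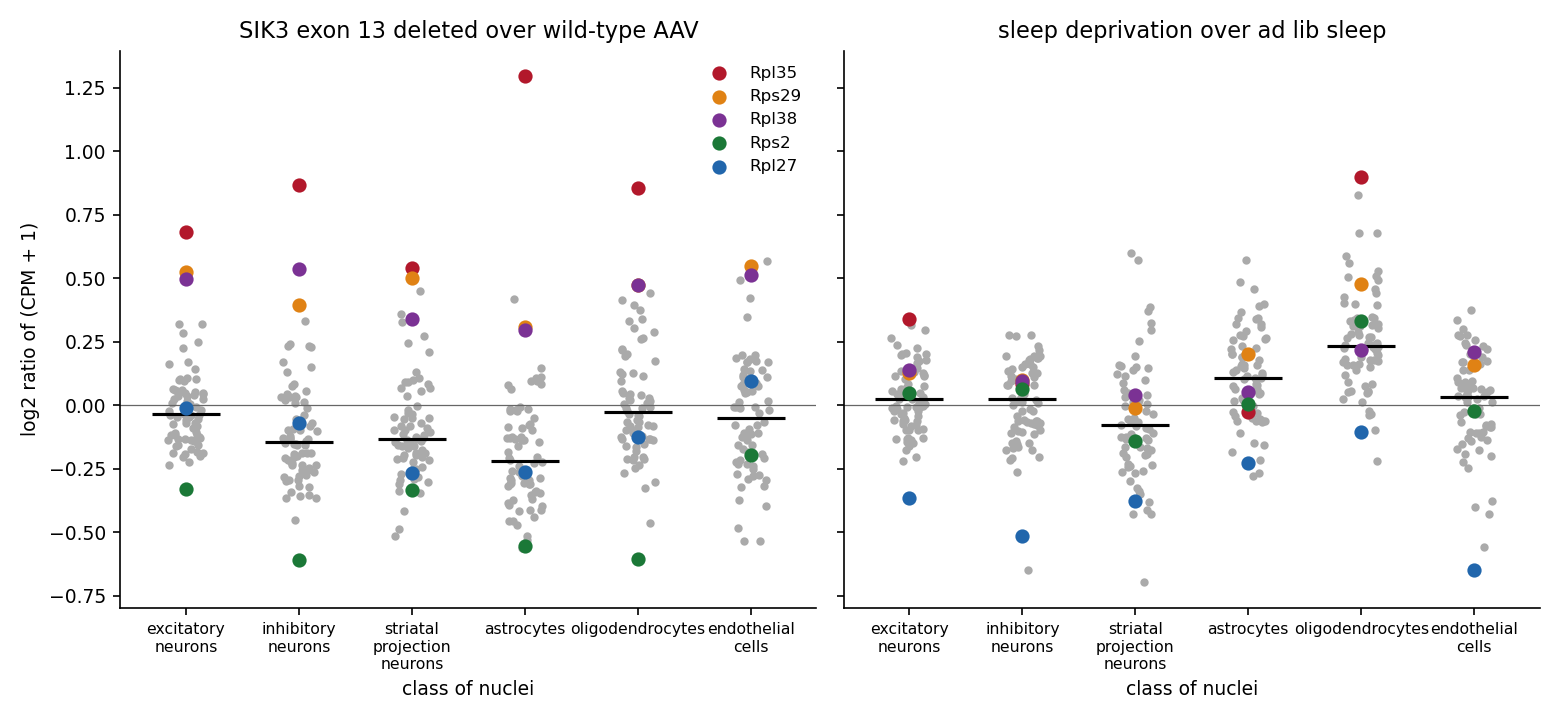
Log2 ratio of each ribosomal protein gene that passed the filter, by class (x axis), for exon 13 deleted over wild-type SIK3 and for sleep deprivation over ad lib sleep; each point is a gene, bars mark the median and 5 genes are coloured. After sleep deprivation the median is 0.23 in oligodendrocytes and 0.02 in excitatory neurons; with exon 13 deleted SIK3 it is −0.22 in astrocytes and −0.03 in excitatory neurons, where Rpl35, Rps29 and Rpl38 lie highest.

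Exon 13 deleted SIK3 was set against wild-type SIK3 to compare the sleep-promoting form of the kinase with its unmodified form in cortex injected with the same vector. The level of vector UMIs was not equal, at 33.9 CPM in excitatory neurons with exon 13 deleted SIK3 and 46.8 CPM with wild-type SIK3. Over all barcodes the order was reversed, at 117 CPM with exon 13 deleted SIK3 and 72.2 CPM with wild-type SIK3. Named excitatory nuclei held 717 of the 5090 vector UMIs with exon 13 deleted SIK3 and 1194 of 3441 with wild-type SIK3. The part of the vector level in the results was not tested. Among nuclei named excitatory neurons the summed level was equal within counting error, with a ratio of 0.995 (0.987 to 1.0). An unnamed cluster led by Olfr115, Olfr112 and Atf3 was left out, with 82 of its 83 nuclei from the exon 13 deleted library. With libraries not centred before clustering, a cluster with these leading genes was named excitatory, with 115 of 135 nuclei from that library. The summed level was lower in astrocytes, 0.876 (0.856 to 0.896), and in inhibitory neurons, 0.925 (0.910 to 0.939). Striatal projection neurons had 0.947, endothelial cells 0.990 and oligodendrocytes 0.998. The median log2 ratio of the genes was −0.03 in excitatory neurons, −0.22 in astrocytes, −0.15 in inhibitory neurons, −0.13 in striatal projection neurons, −0.05 in endothelial cells and −0.03 in oligodendrocytes. Over all genes tested the medians were 0.03, −0.03, 0.00, 0.01, −0.01 and −0.01.

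In astrocytes 20 of 76 ribosomal protein genes were called lower with exon 13 deleted SIK3, where 10.8% of all genes were, and 2 higher, where 9.39% were (20.2% either way). Only 12 of the 76 had a ratio above 1 there, while 45.8% of all genes had. In excitatory neurons 3 of 77 were called higher (3.16% of all genes) and 1 lower (0.668%), with 3.83% of all genes called either way. In inhibitory neurons 4 of 76 were called higher (5.42%) and 7 lower (3.83%). Oligodendrocytes had 9 of 76 higher (9.45%) and 3 lower (9.08%), striatal projection neurons 6 of 76 higher (11.1%) and 6 lower (6.48%), and endothelial cells 6 of 74 higher (11.1%) and 6 lower (13.4%). Rps2, a small-subunit protein at the mRNA entry, was at 119 CPM in astrocytes with exon 13 deleted SIK3, against 175 CPM with wild-type SIK3 (0.679). Rplp1 was at 387 CPM with exon 13 deleted SIK3 and 515 CPM with wild-type SIK3. Rps10 (0.675) and Rpl26 (0.690) were the other astrocyte genes with the lowest ratios.

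At matched depth the astrocyte ratio was below 1 in each depth class, but nearer to 1 than the 0.876 of the whole class. The class from 500 to 1000 UMIs, which was nearest to 1, held only 26 nuclei in each library. The ratio was 0.969 from 500 to 1000 UMIs, 0.928 from 1000 to 2000, 0.902 from 2000 to 4000 and 0.900 from 4000 to 8000. With nuclei under 1% mitochondrial UMIs alone, the median log2 ratio was −0.09. The mitochondrial share of astrocytes was 1.15% with exon 13 deleted SIK3 and 1.35% with wild-type SIK3. Excitatory markers in the astrocyte sums stood at 863 CPM with exon 13 deleted SIK3 and 977 CPM with wild-type SIK3, oligodendrocyte markers at 534 and 701 CPM, and the astrocytes' own markers at 11381 and 10785 CPM. The part of these in the result was not tested.

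Rpl35, Rps29 and Rpl38 had the highest ratios of exon 13 deleted to wild-type SIK3 in excitatory neurons. Other genes exceeded Rps29 and Rpl38 elsewhere, such as Rpl39 in astrocytes (1.34) and Rpl35a in endothelial cells (1.48). Rpl35 was at 28.8 CPM in excitatory neurons with exon 13 deleted SIK3, against 17.6 CPM with wild-type SIK3 (1.64; 1.45 to 1.86), and at 17.8 CPM after sleep deprivation and 13.9 CPM with ad lib sleep. In astrocytes it was at 91.3 CPM with exon 13 deleted SIK3 and 36.6 CPM with wild-type SIK3 (2.49; 1.76 to 3.58), and in oligodendrocytes at 107 and 58.8 CPM (1.82). The exon 13 deleted library was the highest of the 4 for Rpl35 in each of these classes. Rps29, a zinc-binding small-subunit protein, was at 108 CPM in excitatory neurons with exon 13 deleted SIK3, against 75 CPM with wild-type SIK3 (1.44; 1.36 to 1.54), 82.7 CPM after sleep deprivation and 75.7 CPM with ad lib sleep. Rpl38, which helps select Hox messages for translation in mouse embryos, was at 99.1 CPM with exon 13 deleted SIK3 and 70.1 CPM with wild-type SIK3 (1.41; 1.33 to 1.51), against 75.2 CPM after sleep deprivation and 68.2 CPM with ad lib sleep. In oligodendrocytes Rps29 was at 452 CPM with exon 13 deleted SIK3 and 325 CPM with wild-type SIK3, and Rpl38 at 368 and 265 CPM.

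Of 74 genes tested in all 6 classes, 6 were higher with exon 13 deleted SIK3 in all 6 and 23 lower in all 6, against 3.95% and 9.73% of 1695 genes. The 6 were Rpl37a, Rps27, Rpl38, Rps29, Rps28 and Rpl39; Rpl37a and Rps28 were named after their values were seen. Rpl35 did not reach the filter in endothelial cells, where it was at 155 CPM with exon 13 deleted SIK3 and 62.5 CPM with wild-type SIK3. Rps2 was 1 of the 23. It was at 49.8 CPM in excitatory neurons with exon 13 deleted SIK3, against 62.8 CPM with wild-type SIK3 (0.793; 0.733 to 0.858), and its log2 ratio ranged from −0.61 to −0.19 over the 6 classes. It was also at 70.9 CPM after sleep deprivation and 68.6 CPM with ad lib sleep, so the exon 13 deleted library was the lowest of the 4. Across the ribosomal protein genes, the excitatory log2 ratio had a Spearman correlation of −0.296 with exonic length, a description over genes that share 1 pair of libraries.

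The control libraries also differed from each other. Wild-type SIK3 over ad lib sleep gave a summed ratio of 0.969 in excitatory neurons, 1.04 in astrocytes and 1.06 in oligodendrocytes. Sleep deprivation over wild-type SIK3 gave 1.05 in excitatory neurons and 1.13 in oligodendrocytes. These comparisons share libraries with those above, so their values are given side by side only. The excitatory differences among the 4 libraries were all within a few percent at summed level.

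Related gene lists were measured in the same sums, and no test was made of them. Elongation factors and other 5′ TOP messages, which share the pyrimidine start, had a median log2 ratio of 0.12 in oligodendrocytes after sleep deprivation (14 of 19 above 0), beside 0.23 for the ribosomal protein genes. This 5′ TOP list includes Fau, which encodes a small-subunit protein and whose name lies outside the rule. Mitochondrial ribosomal proteins had 0.00 (16 of 31 above 0) and nuclear-encoded oxidative phosphorylation genes −0.02 (37 of 75 above 0). In excitatory neurons these 3 lists had 0.02 (13 of 23 above 0), −0.03 (32 of 77) and 0.00 (42 of 82). In astrocytes with exon 13 deleted SIK3, the 5′ TOP list had −0.17 (4 of 17 above 0) and the oxidative phosphorylation list −0.13 (23 of 75 above 0).

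Across the 6 large classes and 4 libraries, 24 points that share libraries and depth, the genes whose log2 level ran most like the summed ribosomal protein level were ranked by Pearson's correlation among 13138 genes. Fau, whose product holds the small-subunit protein S30, came first with 0.997. Ftl1, the ferritin light chain, Rps3a1, a small-subunit protein whose name lies outside the rule, and Uqcr11, of respiratory complex III, had 0.994. Cox7a2 and Cox4i1, of cytochrome oxidase, had 0.992 and 0.991. The elongation factor genes Eef2, Eef1b2 and Eef1a1 had 0.988, 0.988 and 0.987. Of the summed lists, the 5′ TOP messages, which include Fau itself, had 0.998 and oxidative phosphorylation 0.990. Mitochondrially encoded transcripts had 0.972 and long nuclear noncoding RNAs −0.529. Among the ribosomal protein genes themselves, Rpl13 (0.998) and Rpl3 (0.997) ran closest to the sum, and Rpl35 (0.875) and Rps27l (0.953) farthest from it.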

How the data were processed

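The deposited matrices hold raw UMI counts per gene and barcode; the submitters' processing notes name Cell Ranger 6.1.2 and the genome build mm10 for the authors' processing. Barcodes with at least 500 genes and under 5% mitochondrial UMIs were kept. Scrublet's automatic limit called too few doublets, so the highest scores at the predicted rate (0.8% per 1000 barcodes) were removed. Nuclei were clustered with scanpy 1.11.5 (2000 variable genes, 30 components, 15 neighbours, library-centred, Leiden resolution 1) without ribosomal protein, listed, mitochondrial, vector and sex-linked genes, and named from markers. Names rebuilt this way may differ from the study's. UMIs were summed per class and library, and ratios used log2(CPM + 1). Classes with at least 100 nuclei in every library were compared. Genes named are the 10 of highest excitatory level, the 3 highest and 3 lowest ratios per class and comparison, the 5 extremes of oligodendrocytes over excitatory neurons, stalk genes, Rpsa and paralogs ending in l. Rank by depth was also used. Members, lists and motifs were chosen with earlier results of these data known. Gene positions are from GENCODE vM21. The steps were tested on simulated data. Values of some single genes are not reported here.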

Additional observations from a re-analysis of the deposited data

How the results depend on the processing

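No paired analysis was possible because each group is 1 library and no test was made. No ratio changed sign while past the fold. The whole-class medians and sums reported for the library comparisons all lay inside the fold, so this says nothing of them. At equal UMI totals, the ratios of sleep deprivation over ad lib sleep in excitatory neurons and oligodendrocytes lay past the fold. So did the medians from an equal mix of depths, 0.442 and 0.70. Whether the fold was passed thus depended on how depth was handled. In oligodendrocytes the sleep deprivation median went from 0.23 to −0.0556 in 1 alternative. In excitatory neurons it went from 0.02 to −0.0110 and −0.0181, and the exon 13 deleted median also changed sign. The depth of the sleep deprivation library limits every comparison with it. Values below are the median log2 ratio, the log2 ratio of the sums and the number of genes past the fold. For sleep deprivation over ad lib sleep in excitatory neurons the values reported were 0.02, 0.03 and 2. Nuclei under 1% mitochondrial UMIs gave −0.0110 and 0.00491; no library centring −0.0181, −0.0242 and 1; median-of-ratios factors 0.0907, 0.0946 and 4; TMM factors 0.0824, 0.0861 and 4. An equal mix of depths gave 0.442, 0.457 and 63. Thinning to 1000 UMIs gave a sum of 0.0558 and 9 genes, a mean of at least 20 CPM 1 gene and a fold of 1.5 gave 0. In oligodendrocytes the values reported were 0.23, 0.26 and 23. At least 1000 genes per nucleus gave 0.313, 0.351 and 36; under 1% mitochondrial UMIs −0.0556, −0.0487 and 13; no library centring 0.0505, 0.0563 and 11. Doublets kept gave 0.27 and 0.29. Thinning gave 0.39, 0.41 and 44, an equal mix of depths 0.70, 0.73 and 74, and a fold of 1.5 left 5. Weighting 5 groups of depth rank equally gave 0.32, 0.33 and 38, and leaving out cluster 17 gave 0.0510, 0.0507 and 11; both were chosen after seeing the data.

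For exon 13 deleted over wild-type SIK3 in excitatory neurons the values reported were −0.03, −0.01 and 4. Under 1% mitochondrial UMIs gave −0.0645 and −0.0457; thinning 0.00639, 0.0271 and 12; an equal mix of depths 0.0229 and 0.0505; median-of-ratios factors −0.0779 and −0.0528; TMM factors −0.0771 and −0.0520. Equal groups of depth rank gave a sum of 0.0147, and a fold of 1.5 left 1. In astrocytes the values reported were −0.22, −0.19 and 22. Under 1% mitochondrial UMIs gave −0.0902 and −0.0808, an equal mix of depths a sum of −0.141, median-of-ratios factors −0.227 and equal groups of depth rank −0.156, and a fold of 1.5 left 1. For oligodendrocytes over excitatory neurons, the ratios after thinning were 3.26, 3.41, 3.88 and 3.03 with exon 13 deleted SIK3, wild-type SIK3, sleep deprivation and ad lib sleep. In nuclei of 2000 to 4000 UMIs they were 1.36, 1.6, 1.33 and 1.5. The cause of these shifts was not tested. The shallow-over-deep result without a mitochondrial filter was not run.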
